A study of Mus musculus with 20 samples.

Results

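The regions described here are 589 of the 42403 regions at which GATA6 was found bound in mouse cells. They were selected on measured values of the study: an early and constant time course of GATA6 binding, peaks of pluripotency transcription factors (PTF: OCT4, SOX2 and ESRRB) that appeared only after GATA6 was induced, called ectopic PTF binding, and no peak of SOX17. These 3 labels come from ChIP-seq (k-means clusters of the GATA6 signal and MACS2 peak calls for the others) and give no limit that a single region could be set against. The measurement reported below is ATAC-seq, which reads how exposed DNA is to insertion of adapters by a transposase. It was not used to choose the regions, but GATA6 binding, peak calling and accessibility are read at the same DNA.

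KH2 ES cells of C57BL/6 x 129/Sv background carry a doxycycline-inducible Gata6 cassette and were grown with serum and LIF on mitotically inactive MEF feeders, which were removed by adsorption before the assay. They were sampled untreated (d0) and with 1 µg/mL doxycycline at the titles 8h, 16h, d1, d2 and d4, with 3 samples a group and 2 at d4. XEN cells (line X10, CD1 strain, wild type) were cultured without LIF, were not induced, and gave 3 samples. The treatment labels list 16, 24, 48, 72 and 96 h of doxycycline for the groups titled 8h, 16h, d1, d2 and d4, so that only d4 has the same time in both, and the titles are used here. The transgene adds an ectopic source of GATA6 to cells that also hold the endogenous gene, which clone was used for ATAC-seq is not given in the sources used here, and XEN cells differ from the KH2 line in strain and medium as well as in cell type.

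GATA6 is a zinc finger transcription factor that drives the primitive endoderm, the extraembryonic lineage set aside next to the pluripotent epiblast, and it can bind its motif on nucleosomal DNA, which defines a pioneer factor. OCT4 and SOX2 are pioneer factors that often bind together to a composite motif and hold the pluripotency network, in which the nuclear receptor ESRRB also acts. SOX17 is induced during primitive endoderm differentiation and binds a motif close to that of SOX2.

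The sequence matches that the study's motif scan placed in these regions are shown for members that gained most, for members whose GATA6 binding fell on Oct4 knockdown and for a member that ended below its starting level, so that the GATA6 word and, where an OCT4:SOX2 word lay near it, both words can be read. Sequences are from the plus strand of mm10 (GRCm38), written 5′ to 3′, and capitals mark the best GATA6 match and, where it lay close enough to print, the best OCT4:SOX2 match.
Cyp26b1, chr6:84785689-84785723: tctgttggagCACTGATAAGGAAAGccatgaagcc
Dnah5, chr15:28210981-28211013: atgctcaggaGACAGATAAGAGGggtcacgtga
Rasgrf1, chr9:89972847-89972879: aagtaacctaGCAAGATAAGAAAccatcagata
Bmp2, chr2:133429943-133429975: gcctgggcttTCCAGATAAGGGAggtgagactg
Dync2h1, chr9:6897095-6897237: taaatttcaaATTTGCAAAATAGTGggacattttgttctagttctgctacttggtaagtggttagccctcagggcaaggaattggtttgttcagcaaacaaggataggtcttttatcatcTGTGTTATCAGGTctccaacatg
Diaph3, chr14:86681996-86682142: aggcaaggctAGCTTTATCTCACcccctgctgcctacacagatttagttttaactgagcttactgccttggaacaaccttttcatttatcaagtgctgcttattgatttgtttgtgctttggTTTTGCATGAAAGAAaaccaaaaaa
Mkrn1, chr6:39408333-39408385: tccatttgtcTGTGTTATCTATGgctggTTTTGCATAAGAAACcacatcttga

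Each name is the gene with the nearest transcription start in the GENCODE annotation, which does not make it a target. In the region near Cyp26b1 both matches fell on the same bases, and the OCT4:SOX2 score there was only 5.19. Near Mkrn1 the matches lay side by side, with an OCT4:SOX2 score of 14.7 and a GATA6 score of 10.2. In the regions near Dync2h1 and Diaph3 both matches are in the printed stretch, which is 143 and 147 bases long.

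A GATA6 motif was found in 567 of the 589 regions (96.3%), against 89.7% of all GATA6 regions. Its median best score was 11.6, against 10.2 over all regions, and the best match held the letters AGATAAG in 53.4% of the members with a match and in 37.8% of all matches. The middle of the best match lay within 50 bp of the GATA6 summit in 55.4% of them, against 50.0% over all regions. Early regions with neither PTF nor SOX17 also had a median best score of 11.6. There AGATAAG was in 54.7% of the matches, and 63.7% lay within 50 bp of the summit. An OCT4:SOX2 match was present in 82.0% of members and 71.5% of all regions, but its median score of 8.0 was below the 8.17 of all regions, and 22.6% of the best matches lay within 50 bp of the summit, against 26.7%. A SOX17 match was present in 62.6% of members, against 69.2% of all regions and 84.0% of the early regions that had ectopic PTF and a SOX17 peak. It was present in 58.1% of early regions with neither, and in 58.2% of transient regions with ectopic PTF and no SOX17. Where present it lay within 50 bp of the summit in 13.01% of members and 29.0% of all regions.

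These shares depend on width, since a wide region has more room for a match, and the members were 190 to 1683 bp wide with a median of 638 bp, against 525 bp for all regions. Letters were therefore also searched, on both strands, in a window of 301 bp centred on each summit. The GATA6 core AGATAA was in 77.1% of the member windows and 58.1% of all windows. It was in 78.8% of the windows of early regions with neither PTF nor SOX17. In early regions with ectopic PTF and SOX17 it was in 69.7%, and in transient regions with ectopic PTF and no SOX17 in 54.9%. The octamer ATGCAAAT was in 35 member windows (5.94%), against 3.73% of all windows, 3.25% of the early regions with ectopic PTF and SOX17, and 10.4% of transient regions with ectopic PTF and no SOX17. The SOX letters ATTGTT were in 14.6% of member windows and 26.4% of all windows, and in 31.7% of those of early regions with ectopic PTF and SOX17. They were in 16.4% of the windows of early regions with neither, and in 13.2% of those of the transient regions. The ESRRB letters AAGGTCA were in 9.51% of member windows and 9.75% of all windows. At equal length the share with the GATA6 letters was thus above, and the share with the SOX letters below, that of the whole list, as a description of letters and not of binding. Neither trait was particular to the members, since early regions with neither PTF nor SOX17 had both.

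Most members lay in chromatin that was closed in ES cells. By the study's classes of d0 accessibility 455 were closed (77.2%, against 61.3% of all regions), 124 were moderate and 10 accessible. The closed share was much the same in early regions with ectopic PTF and SOX17 (77.8%) and in early regions with neither (77.7%). It was 55.8% in transient regions with ectopic PTF and no SOX17. By ES cell histone marks 204 belonged to the class named naive (34.6%, against 17.996% of all regions), 139 to facultative heterochromatin (23.6%, against 22.3%), 90 to primed and 51 to poised enhancers, 43 to constitutive heterochromatin, 39 to promoters and only 23 to active enhancers (3.90%, against 11.2%). In the same order of compared sets the naive share was 32.9%, 25.6% and 15.3%, and that of active enhancers 5.93%, 4.26% and 10.3%. Summits fell between genes in 273 cases, in introns in 259, within 1 kb of a transcription start in 46, in untranslated exons in 7 and in coding exons in 4. The regions were spread over the genome: they had 541 nearest genes, 14 of them lay within 10 kb of another member, and the gene with most members was Fgf10, which encodes a fibroblast growth factor, with 4.

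Knockdown of Oct4 by siRNA during induction had been followed by GATA6 ChIP-seq at d2. GATA6 binding was decreased at 139 members (23.6%), increased at 3 and unchanged at 447. The share with decreased binding was 6.25% over all regions, and it was 10.8% in the early regions with ectopic PTF and SOX17, 4.52% in early regions with neither, and 18.5% in transient regions with ectopic PTF and no SOX17. The knockdown class and the rule both rest on GATA6 ChIP-seq, so these shares are given as a description.

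Accessibility was deposited as an average per group in RPM, which is reads scaled to library size and not to region width, and an average has no spread of its own. Reads of 16 single libraries could be worked back from these averages at 24753 regions, 341 of them members, in all groups but d0. Each library is given a letter, which no label ties to a sample. In the KH2 libraries 1 read was worth 0.00383 to 0.00552 RPM, and they held 546951 to 2023651 reads in the recovered regions. For XEN cells, with 3 labelled samples, the average was fitted by 2 libraries, and in 1 of them, library b, a read was worth 0.0231 RPM and 179140 reads lay in the recovered regions. Libraries of 1 group differed in their sum over regions, at 8h from 2794 to 5141 RPM, so that a change common to all regions cannot be told apart from a difference between libraries. As a check of the cell labels, of the 66 GATA6 regions nearest to 6 ES cell genes (Nanog, Esrrb, Klf4, Tfcp2l1, Zfp42, Prdm14) 15 were more than 2-fold higher and 14 more than 2-fold lower at d4 than at d0, and of the 91 nearest to 7 primitive endoderm genes (Gata4, Sox17, Sox7, Pdgfra, Dab2, Lama1, Col4a1) 60 were higher and 4 lower.

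The members were most accessible at d2. In the averages their median was 0.0805 RPM before induction (d0), stood at 0.0786 RPM after 8h and at 0.110 RPM after 16h, was 0.138 RPM at d1 and 0.218 RPM at d2, and was back at 0.147 RPM by d4. In XEN cells it was 0.110 RPM. The d2 column was the highest of the 6 KH2 columns at 474 members (80.5%), against 45.0% of all regions, and d4 was the highest at 67 (11.4%), against 28.0%. In single libraries the median over the 341 recovered members was 0.0984, 0.103 and 0.0522 RPM at 8h, 0.15, 0.11 and 0.0836 RPM at 16h, 0.111, 0.178 and 0.132 RPM at d1, 0.188, 0.248 and 0.232 RPM at d2, and 0.146 and 0.15 RPM at d4. All 3 d2 libraries were above every library of another group, whereas 16h overlapped 8h and d1 overlapped 16h. In bulk cultures a smaller share of cells with an open region and less opening per cell cannot be told apart.

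**Figure D1:**
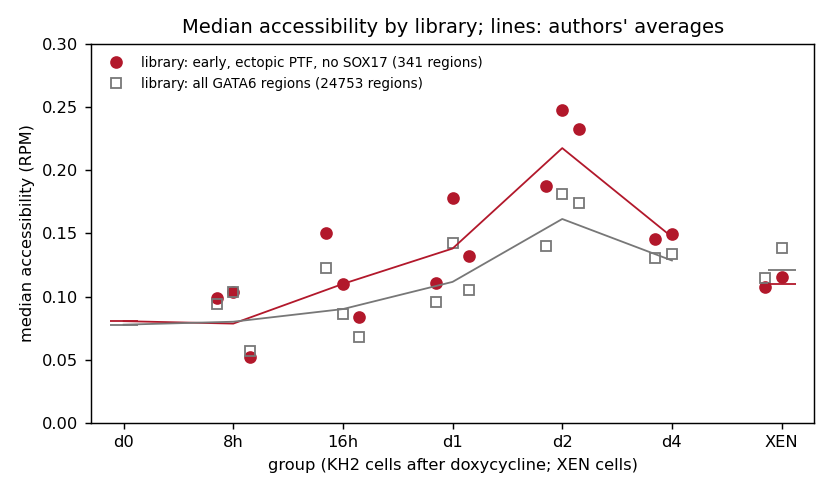
Median accessibility in RPM (vertical axis, linear from 0) by group (horizontal axis) in each recovered library. Filled points are the 341 members with recovered reads and open squares all 24753 recovered regions, and lines and bars give the medians of the authors' averages over 589 and 42403 regions. The members' points at d2, from 0.188 to 0.248 RPM, are above those of all other groups.

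On the scale of log2(RPM + 0.03), which understates changes of low values, the median region change of the members against d0 was 0.29 at 16h, 0.54 at d1, 1.13 at d2, 0.62 at d4 and 0.24 in XEN cells. All 42403 regions moved too, by 0.11, 0.31, 0.69, 0.52 and 0.40. Relative to them the members stood 0.18 higher at 16h, 0.23 at d1, 0.44 at d2 and 0.11 at d4, and in XEN cells at -0.16. The differences of the column medians were 1.16 at d2 and 0.68 at d4, or 0.33 and 0.12 after the shift of all regions (0.83 and 0.56) is taken off, and 0.34 and -0.15 in XEN cells, where the sign thus depends on the scaling.

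Counting single members in the averages, none was past 2-fold against d0 at 8h or 16h, 51 were higher at d1 (8.66%, against 4.55% of all regions), 344 at d2 (58.4%, against 36.8%), 137 at d4 (23.3%, against 31%) and 66 in XEN cells (11.2%, against 27.7%). No member was more than 2-fold lower at d4, where 7.27% of all regions were, and 9 were in XEN cells (1.53%, against 8.83%). These counts have no replicate check. The share of members was above that of the whole list at d2 and below it at d4 and in XEN cells. Of the 344 members past 2-fold at d2, 130 (37.8%) were also past 2-fold at d4 and 46 (13.4%) in XEN cells, against 66.2% and 37.6% of the 15616 regions of the whole list that were past 2-fold at d2.

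The recovered libraries were tested with limma over all 24753 regions, against 8h because d0 could not be resolved, and a member was called at a Benjamini-Hochberg adjusted p under 0.05 and a log2 change above 1. At 16h 0 of 341 members were called (0.00404% of all regions were called higher). At an unadjusted p under 0.05 there were 48 of 341 members and 1597 of all 24753 regions. At d1 36 were higher (10.6%, against 5.98%), at d2 190 (55.7%, against 36.9%) and at d4 76 (22.3%, against 30.5%). None was called lower than 8h at any of these times. Of all 24753 regions, 1 was called lower at 16h, 4 at d1, 285 at d2 and 1632 at d4. Between d1 and d2 52 members rose (15.2%, against 19.9%). Between d2 and d4 36 members fell (10.6%, against 10.1%) and 0 rose, against 520 of all 24753 regions. Without d2 library b, d2 library c, d4 library a or d4 library b the number that fell between d2 and d4 was 15, 22, 5 or 6. The number at d1 was 67 without 8h library b, 9 without 8h library c, 64 without d1 library a and 8 without d1 library b, and the 76 at d4 became 115 without 8h library b.

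The fit gave every region the same standard error, 0.32 for d2 minus 8h and 0.36 for d4 minus 8h, as limma used 1 estimate of the spread for all of them. With each library centred on the median of its regions, 52 members were called higher at d2 (15.2%, against 14% of all regions). At d4 29 were called higher (8.50%, against 16.2%). Called lower were 2 members at d2 (0.587%, against 3359 of all 24753 regions) and 4 at d4 (1.17%, against 3861). Between d2 and d4 11 then fell (3.23%, against 4.61%). After centring, the share called higher at d2 was therefore close to that of the whole list, and at d4 it was below it. The shares called lower were below those of the whole list at both times. Without centring, every d2 library was above every 8h library at 251 of 341 members (73.6%, against 50.2% of all regions), and both d4 libraries were below all d2 libraries at 188 (55.1%, against 36.7%).

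To place these regions among those that share all but 1 of their labels, they were set beside early regions with ectopic PTF and a SOX17 peak (n = 3725), early regions with neither PTF nor SOX17 (n = 2278) and transient regions with ectopic PTF and no SOX17 (n = 756). The median region change at d2 was 1.13 in the members, 1.93 in the regions that also had SOX17, 0.79 in those with GATA6 alone and 0.79 in the transient regions. At d4 it was 0.62, 1.54, 0.51 and 0.12 in the same order, and in XEN cells 0.24, 0.83, 0.45 and -0.04. Medians at d0 were 0.0805, 0.111, 0.0605 and 0.0901 RPM, so that the sets did not start level. Per kilobase of region they were 0.124, 0.131, 0.124 and 0.171 RPM.

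**Figure D2:**
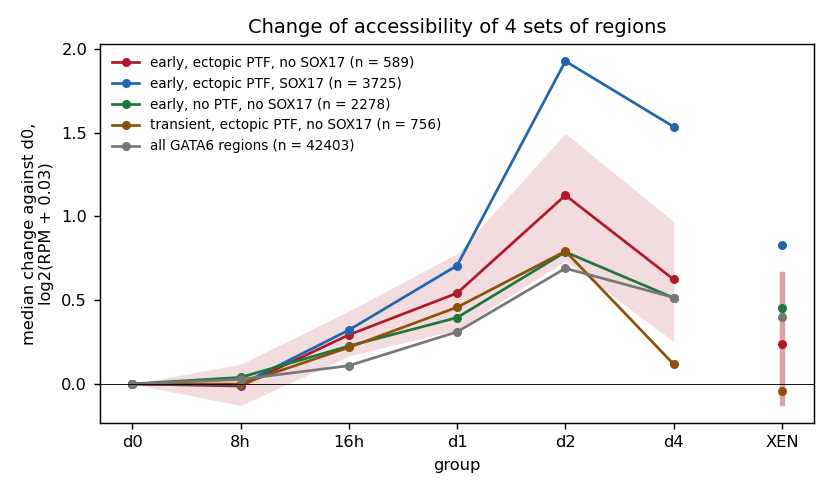
Median change of accessibility against d0 on the scale log2(RPM + 0.03) (vertical axis) by group (horizontal axis), from the authors' averages, for 4 sets of regions that differ in 1 label and for all GATA6 regions. The shaded band and the bar at XEN span the quartiles of the members, whose median is at 1.13 at d2 and 0.62 at d4.

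The same gaps were read in each library. The member median was below that of early regions with ectopic PTF and SOX17 by 0.33, 0.32 and 0.37 on the log2 scale in the 8h libraries, by 1.11, 1.34 and 1.26 at d2 and by 1.41 and 1.40 at d4. The gap at d2 and d4 was wider in every library than at 8h, 16h or d1. Against early regions with GATA6 alone the members were higher by 0.29, 0.34 and 0.13 at 8h, by 0.48, 0.59 and 0.54 at d2, and by 0.32 and 0.28 at d4. At d2 these gaps did not overlap those of 8h, while at d4 they did. Against transient regions with ectopic PTF the difference was -0.05, -0.19 and -0.30 at 8h, 0.07, 0.23 and 0.20 at d2, and 0.43 and 0.34 at d4, so that it was above 0 in the d2 and d4 libraries and below 0 in the 8h libraries. The medians are of whole reads (20, 21 and 10 reads for the members at 8h), and these gaps are values without a test.

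**Figure D3:**
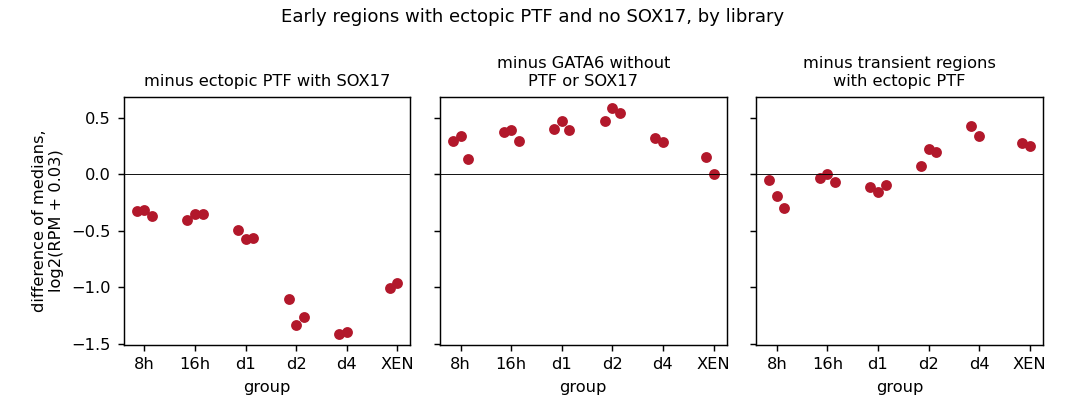
Median of the early regions with ectopic PTF and no SOX17 minus the median of each compared set, on the scale log2(RPM + 0.03) (vertical axis), in each recovered library by group (horizontal axis). The gap to regions with SOX17 is widest at d4 (-1.41 and -1.40), and the gap to transient regions is above 0 at d2 and d4.

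By limma, 190 of 341 members (55.7%) were called higher at d2, and 1908 of 2148 regions with SOX17 (88.8%), 466 of 1282 with GATA6 alone (36.3%) and 172 of 438 transient regions (39.3%). At d4 the shares were 22.3%, 75.7%, 21.1% and 6.39%. On centred libraries they were 15.2%, 57.1%, 8.35% and 7.08% at d2, and 8.50%, 52.2%, 4.76% and 0.457% at d4. Both contrasts share the 8h libraries. Column by column, d2 was the highest KH2 value at 80.5% of members, 81.2% of regions with SOX17, 61.3% of those with GATA6 alone and 70.0% of transient regions. Of the regions past 2-fold at d2, 37.8% of members, 82.1% of regions with SOX17, 47.0% of those with GATA6 alone and 11.97% of transient regions were past 2-fold at d4.

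Among the members, the 139 whose GATA6 binding decreased on Oct4 knockdown stood higher at d2 and lower at d4 than the unchanged ones. Their median region change was 0.40 at 16h, 0.65 at d1, 1.35 at d2 and 0.56 at d4, against 0.27, 0.50, 1.06 and 0.64 for unchanged members. The step from d2 to d4 was -0.68 at the former and -0.47 at the latter. In the libraries the median of the 79 decreased members minus that of the 261 unchanged ones was -0.05, -0.16 and -0.09 at 8h, 0.14, 0.15 and 0.08 at d2, and -0.17 and -0.13 at d4. It was above 0 in every d1 and d2 library and below 0 in every 8h, d4 and XEN library. At d2 52 of 79 decreased members were called higher by limma (65.8%) and 137 of 261 unchanged ones (52.5%), at d4 15 (19.0%) and 61 (23.4%), and 18 of each fell from d2 to d4 (22.8% and 6.90%). Over all regions the shares were 36.9%, 30.5% and 10.1%, and the count of falls is unstable, being 5 without d4 library a and 6 without d4 library b over both classes. The same order at d2 was present over all regions (1.21 decreased, 0.61 unchanged), where the difference was larger than among the members, in regions with SOX17 (2.08 and 1.91), in those with GATA6 alone (1.15 and 0.77) and in transient regions (1.06 and 0.74). At d4 the decreased regions were the lower ones also over all regions (0.33 and 0.43) and in regions with SOX17 (1.26 and 1.54). They were the higher ones in those with GATA6 alone (0.60 and 0.51) and in transient regions (0.20 and 0.11). The order at d2 was thus not particular to the members. That at d4 was shared by the whole list and the regions with SOX17, but not by the other sets.

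**Figure D4:**
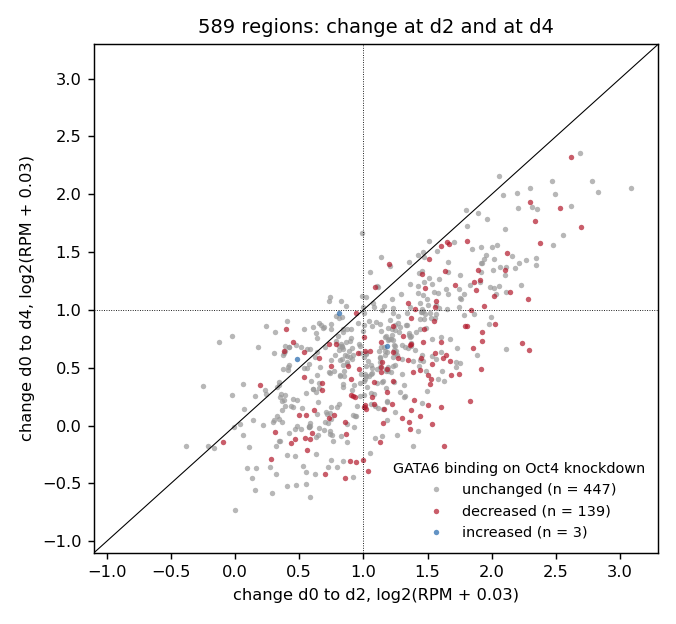
Change of accessibility from d0 to d2 (horizontal axis) and from d0 to d4 (vertical axis), both on the scale log2(RPM + 0.03), of the 589 members, coloured by the change of GATA6 binding on Oct4 knockdown. The solid line marks equal change and dotted lines a 2-fold gain. Most points lie below the solid line, and 344 lie right of the vertical dotted line.

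Classes of chromatin at d0 differed more in level than in gain. Members of the promoter class had a median of 0.363 RPM at d0 and 0.864 RPM at d2, and naive members 0.0537 and 0.156 RPM. Their median region changes at d2 were 0.91 and 1.14. Poised enhancers and facultative heterochromatin had 1.20 each, primed enhancers 1.02, active enhancers 1.11 and constitutive heterochromatin 0.90. At d4 the 23 active enhancers had 0.47 with 0 past 2-fold, and the 51 poised enhancers 0.74 with 17 past 2-fold (33.3%). Over all regions 31% were past 2-fold at d4, close to the share of the poised enhancers. In XEN cells the moderate members stood at -0.16 and the closed ones at 0.36 against d0, where all regions moved by 0.40. The moderate and closed classes were made from d0 accessibility, which is also the baseline of the change. The contrast between them can thus be partly set by the classes. The other classes of this paragraph rest on ES cell histone marks.

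Members with a higher OCT4:SOX2 score had the smaller median gains. The median change at d2 was 0.90 at the 49 members with an OCT4:SOX2 score over 12, 1.03 at scores of 9 to 12, 1.13 up to 9 and 1.23 at the 106 without a match. By GATA6 score it was 1.21 up to 9, 1.16 at 9 to 11, 1.00 at 11 to 13 and 1.10 over 13. These differences are small beside the quartiles of the members at d2 (0.735 and 1.496) and were not tested.

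Among the 8 members with the largest gains at d2, the d0 level was 0.03 to 0.0905 RPM, around the member median of 0.0805 RPM or below it. In an intron of Exoc6b, 192 kb from the start of Cyp26b1, which encodes an enzyme that breaks down retinoic acid, a closed region stood at 0.0524 RPM at d0. Its libraries read 0.0656, 0.0423 and 0.00949 RPM at 8h, 0.42, 0.667 and 0.528 RPM at d2 and 0.307 and 0.347 RPM at d4. The 8h values rest on 13, 8 and 1 reads. The d2 and 8h libraries did not overlap, and the log2 change was 3.11 (SE 0.32, limma adjusted p = 8.16e-20). The 8 members were picked by their d2 averages, which hold the same d2 libraries, so that a large change at d2 was built into their tests. Within 1 kb of a start of Ank3, the gene of the membrane adaptor ankyrin-G, the libraries read 0.103, 0.0658 and 0.0427 RPM at 8h, 0.546, 0.919 and 0.746 RPM at d2, 0.588 and 0.572 RPM at d4, and 0.624 and 0.554 RPM in XEN cells. There the XEN libraries overlapped those of d4, and the change at d2 was 2.95 (SE 0.32, limma adjusted p = 5.58e-18). The largest gain in the averages was in an intron of Zeb2, a zinc finger repressor of epithelial genes, from 0.0512 RPM at d0 to 0.661 RPM at d2 and 0.308 RPM at d4. Its reads could not be recovered, so it has no test.

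Most of the other large gains were also at closed regions and were smaller again at d4. The region 69 kb from Utp14b read 0.131, 0.0893 and 0.0617 RPM at 8h, 0.765, 0.8 and 0.683 RPM at d2, 0.387 and 0.347 RPM at d4 and 0.0798 and 0.0231 RPM in XEN cells. Its d4 libraries were below all d2 libraries, with a log2 change of -0.97 between them (limma adjusted p = 0.0542), and of the XEN libraries a was within the range of 8h and b, with 0 reads, below it. Near Dync2h1, a cytoplasmic dynein heavy chain of cilia, the change at d2 was 2.63 (SE 0.32, limma adjusted p = 1.15e-14). The 8h values there rest on only 5, 6 and 1 reads. In the averages the regions in introns of Elovl7, a fatty acid elongase gene, and Dnah5, an axonemal dynein gene, changed by 2.62 each, and the one nearest to Mms22l, at a distance of 875 kb, by 2.53. Further members were named for their gain at d4: an intron of Dock9 was at 0.36 RPM at d2 and 0.389 RPM at d4, and regions near Slc35f5, Sash1 and Xrcc2 had changes against 8h of 2.17, 2.11 and 1.98 (SE 0.36, limma adjusted p = 2.93e-08, 7.46e-08 and 4.48e-07). They were picked by their d4 averages, which hold the same d4 libraries, so that a large change at d4 was built into these tests. The 8h values rest on 15, 33 and 7 reads near Slc35f5, 11, 9 and 5 near Sash1, and 10, 7 and 5 near Xrcc2.

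The 4 further regions with decreased GATA6 binding on Oct4 knockdown were also named for their gain at d2, so that a large change at d2 was again built in. The highest of them at d2 was in an intron of Rasgrf1, which encodes an exchange factor for Ras. It read 0.183, 0.23 and 0.152 RPM at 8h, 0.367, 0.777 and 0.535 RPM at d1, 0.861, 1.2 and 1.22 RPM at d2 and 0.508 and 0.727 RPM at d4. No d1, d2 or d4 library overlapped those of 8h, and the change at d2 was 2.36 (SE 0.32, limma adjusted p = 5.09e-12). Regions in introns of the phospholipase C genes Plcb4 and Plce1 changed by 2.34 and 2.30 from d0 to d2 in the averages. In an intron of Diaph3, a formin gene, the change was 2.29 at d2 and 1.10 at d4.

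**Figure D5:**
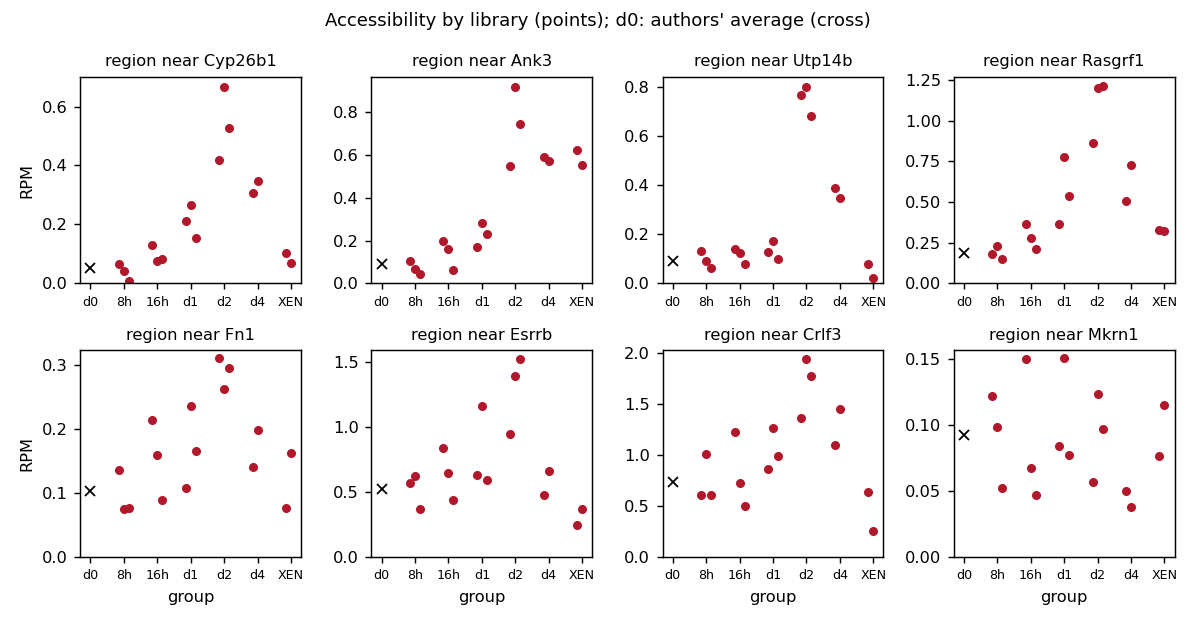
Accessibility in RPM (vertical axes, from 0 and scaled to each region) by group (horizontal axes) at 8 members named by their nearest gene. Points are single libraries and the cross is the authors' d0 average. At the regions near Cyp26b1, Ank3, Utp14b and Rasgrf1 all d2 libraries are above all 8h libraries, and at Mkrn1 they overlap.

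The 4 members named for the highest level at d0 were at promoters and changed less at d2 than those named for their gain at d2. Over the 589 members, the Spearman correlation of d0 level with change at d2 was 0.0014. Of the 4, Crlf3 changed by 1.17 in the averages, against a member median of 1.13. The promoter of Nppb, which encodes a natriuretic peptide, was at 0.869 RPM at d0 and read 0.961, 1.5 and 0.741 RPM at 8h against 1.28, 1.74 and 1.49 RPM at d2. These overlap, with a log2 change of 0.53 (SE 0.32, limma adjusted p = 0.163). The promoter of Crlf3 was at 0.737 RPM at d0 and changed by 1.19 at d2 (SE 0.32, limma adjusted p = 0.000756), and that of Zscan20 by 0.84 (limma adjusted p = 0.0209), under the fold limit. Without 8h library b the change at Zscan20 was 1.01 and was called, and with centred libraries that at Crlf3 was 0.41 and was not. At the promoter of Nfe2l2, the regulator of the response to oxidative stress, the averages were 0.75 RPM at d0 and 1.19 RPM at d2.

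Of the 4 members that ended lowest relative to d0, the 2 with recovered reads were not past the test. In an intron of Mkrn1, which encodes a ubiquitin ligase and where the OCT4:SOX2 and GATA6 words printed above lie a few bases apart, the libraries read 0.122, 0.0987 and 0.0522 RPM at 8h, 0.0568, 0.124 and 0.0968 RPM at d2 and 0.0502 and 0.0374 RPM at d4. The change at d4 against 8h was -0.67 (SE 0.36, limma adjusted p = 0.115). Near Tra2a, a splicing regulator, it was -0.57 (limma adjusted p = 0.187). In the averages the changes from d0 to d4 near Thumpd2 and in an intron of Fdft1, the squalene synthase gene, were -0.61 and -0.58.

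Of the regions nearest to genes of 5 lineage lists, 8 of 706 were members (1.13%), against 1.39% of all regions. Of 12 primitive endoderm factors 1 had a member, of 21 receptors and signalling genes 1, of 13 basement membrane genes 1 (with 2 members), of 14 genes of endocytosis and secreted proteins 2, and of 20 pluripotency genes 2. All of these lists had GATA6 regions, from 80 to 198 each. The strongest was the promoter of Dab2, an endocytic adaptor of the primitive endoderm, at 0.354 RPM at d0, 1.93 RPM at d2, 1.38 RPM at d4 and 0.962 RPM in XEN cells, a change of 2.35 at d2 in the averages. A region 122 kb from Bmp2, a ligand of the BMP family, whose GATA6 binding decreased on Oct4 knockdown, averaged 0.0897 RPM at d0, 0.458 RPM at d2 and 0.19 RPM at d4. The region 131 kb from Sox17 was low throughout, at 0.015 RPM at d0 and 0.04 RPM at d2 (log2 change against 8h 0.61, SE 0.32, limma adjusted p = 0.102). Its 8h values rest on 3, 2 and 2 reads.

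The adjoining pair of members 78 kb and 79 kb from Fn1, the fibronectin gene, had changes at d2 of 1.38 and 1.08 (SE 0.32, limma adjusted p = 8.54e-05 and 0.00237). The wider of them read 0.136, 0.0752 and 0.076 RPM at 8h, 0.31, 0.262 and 0.295 RPM at d2 and 0.141 and 0.198 RPM at d4. Its GATA6 binding was decreased on Oct4 knockdown and that of its neighbour was not. The call at the narrower region was lost without 8h library b (0.85) or d2 library a (0.98), and with centred libraries the changes were 0.59 and 0.30, neither of them called. A region in an intron of Esrrb read 0.567, 0.621 and 0.37 RPM at 8h, 0.944, 1.39 and 1.53 RPM at d2, 0.477 and 0.663 RPM at d4 and 0.243 and 0.369 RPM in XEN cells. It was higher at d2 by 1.26 (SE 0.32, limma adjusted p = 0.000332) and fell by 1.12 from d2 to d4 (SE 0.36, limma adjusted p = 0.022). With centred libraries the change at d2 was 0.48 and was not called. In an intron of Tet2, which encodes an enzyme that oxidises methylcytosine, the averages were 0.135 RPM at d0, 0.246 RPM at d2 and 0.127 RPM at d4.

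In XEN cells the members were less accessible than at d4. Their median was 0.110 RPM against 0.147 RPM. Of 341 members limma called 50 lower (14.7%, against 13.6% of all regions) and 2 higher (0.587%, against 1366 of all 24753 regions). The count lower was 21 without d4 library a and 11 without d4 library b or without XEN library b, the library with the lower total. With libraries centred it was 44 (12.9%, against 12.9%). The XEN change also varied by chromosome over all regions, from a median of 0.16 on chromosome 11 to 0.82 on chromosome 16, and the median change of the members minus the median change of their own chromosome was -0.16. Cell line, strain and medium cannot be told apart from stage here.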

How the data were processed

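Adapters were trimmed by the authors (cutadapt), and Bowtie2 was used for alignment to mm10. Duplicates (SAMtools) and poorly mapped reads were discarded, read ends were shifted for the transposase, and the authors counted fragments under 100 bp in each GATA6 peak. The tools and the build are also in the submitters' processing notes, where no versions are given. The deposited ATAC values are RPM (reads per library size), averaged by the authors over the libraries of a group. Per the file headers, other columns hold motif match scores per region (FIMO with JASPAR matrices) and categories such as the GATA6 cluster. A further 52 columns of other assays were not used. The classes on Oct4 knockdown were made by the authors with DESeq2 on GATA6 ChIP-seq.

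The members, gene lists and tests were chosen with earlier results of these data known. Where all columns kept more than 12 significant digits (24753 regions), an average was resolved into whole reads of its libraries within 1e-07 reads. The step was tested on simulated data first. It gave no solution for d0, and the planned tests use 8h in its place. Each column's lowest value, 0.0046 to 0.00518 RPM in KH2 cells, is the mean worth of 1 read per library. By the study's methods the samples of a group are separate cultures. limma 3.58.1 (R 4.3.3) was fitted to log2(RPM + 0.03) over all regions and groups, with Benjamini-Hochberg adjustment. In this fit p-values rest on 1 estimate of the spread between libraries, shared by all regions, and not on the spread of each region. Intervals from counting are not given, since reads are not independent molecules. Sets are summarised by medians of the averages, without a test.

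Summits were assigned to the nearest start of a protein-coding gene in GENCODE vM21 (GRCm38), and sequence was read from GRCm38 with pysam 0.24.0. Regions were named by a rule that left out chromosomes 18, X and Y, leaving 545 members: the 8 with the largest change at d2, the 4 others with the largest change at d4, the 4 with the lowest change at d4, the 4 highest at d0, the 4 with decreased binding on Oct4 knockdown and the largest change at d2, and every member nearest to a gene of the lists. The alternatives were other pseudocounts, centring, quantile normalisation, removal of the added read, a filter on low values, fits of 2 groups, leaving out each library, equal weight to deciles of d0, and division by width. A further alternative for XEN cells was chosen after seeing the data.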

Additional observations from a re-analysis of the deposited data

How the results depend on the processing

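No paired analysis was possible because the columns are averages and the libraries worked back from them carry no replicate numbers. Past 2-fold against d0, the members numbered 122, 1, 3 and 2 at d1 with a pseudocount of 0.006 RPM, a pseudocount of 0.15 RPM, centring and quantile normalisation, and 113, 9, 13 and 24 in XEN cells. With the last 3 of these they numbered 134, 76 and 53 at d2 and 27, 34 and 34 at d4. Shares over all regions are not given for these counts, so a drop cannot be read as particular to the members. In the limma test the same 3 gave 2, 8 and 8 of 341 members at d1, 77, 52 and 48 at d2, and 18, 29 and 27 at d4. Over all 24753 regions, 0.15 RPM and centring gave 156 and 338 at d1, 4883 and 3466 at d2, and 3439 and 4008 at d4. Of these regions 1514, 686 and 1142 fell from d2 to d4 with 0.006 RPM, 0.15 RPM and centring. In XEN cells 2317 and 1396 were lower than at d4 with 0.006 and 0.15 RPM. The number of members that fell from d2 to d4 was 17 with 0.006 RPM, then 8, 11 and 6. The number of members lower in XEN cells than at d4 was 31 with 0.006 RPM and 13 with 0.15 RPM. Leaving out 1 library at a time gave 8 to 67 at d1, 154 to 211 at d2, 55 to 115 at d4, 5 to 36 for the fall from d2 to d4 and 11 to 54 for XEN cells against d4. Where a group was left with 1 library, that library was assumed to vary like the others. For quantile normalisation and for libraries left out, limma counts over all regions are not given, so these member counts cannot be set beside the whole list.

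The difference of medians against d0 was 0.32, 0.21 and 0.19 at d1 with 0.15 RPM, centring and quantile normalisation. At d2 it was 1.37 with 0.006 RPM, then 0.67, 0.33 and 0.27. At d4 it was 0.82, 0.37, 0.12 and 0.11, and 0.71 with the lowest value subtracted and 0.58 over recovered members. In XEN cells it was 0.42 and 0.17 with the pseudocounts and 0.26 with the lowest value subtracted, and it turned to -0.15 with centring and -0.19 with quantile normalisation. With the median of every chromosome first set to that of all regions, whose own shift is thus kept in, it was 0.32, an alternative chosen after seeing the data.

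The change of the members minus that of regions with SOX17 was -0.77, -0.72, -0.76 and -0.76 at d2 with 0.15 RPM, quantile normalisation, deciles of d0 and division by width. At d4 it was -1.07 with 0.006 RPM, then -0.78, -0.92, -0.86 and -0.96, and -1.03 with the lowest value subtracted. Against GATA6 alone it was 0.12 at d2 with quantile normalisation, and at d4 -0.0021 with 0.006 RPM, -0.0081 with quantile normalisation, 0.12 with deciles and 0.075 by width, so that its sign at d4 is not settled. Against transient regions it was 0.19 with 0.15 RPM and 0.42 by width at d2, and 0.70, 0.32, 0.46 and 0.67 at d4 with 0.006 RPM, 0.15 RPM, deciles and width.

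Of the named regions, the change from 8h to d2 turned negative with centring at Mkrn1 (-0.76), Tra2a (-0.65), Nppb (-0.25) and Sox17 (-0.17), and at Mkrn1 also without 8h library c (-0.23), d2 library b (-0.16) or d2 library c (-0.02), in a range from -0.23 to 0.25 over the libraries left out. None of these was called before. The cause was not tested. At 8h the member median rested on 10 to 21 reads a library, and in XEN library b on 4, which limits single low regions most.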
